A study of Mus musculus with 6 samples.

Results

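Complement genes were examined in C2C12 cells, a mouse myoblast line, after repression of an enhancer of *Myog*. The 9 genes *C1qa*, *C1qb*, *C1qc*, *C3*, *C3ar1*, *C5ar1*, *Cfb*, *Cfp* and *Serping1* were taken by name from the 23231 genes listed in at least 1 of 6 RNA-Seq libraries. They hold components that macrophages make, such as C1q, and components that fibroblasts and other mesenchymal cells also make. All cells carried a lentiviral dCas9-KRAB, a Cas9 without nuclease activity joined to a repressor domain, delivered at a multiplicity of infection of 100. They were selected with 2 μg/ml puromycin and harvested on day 5 of differentiation in 2% horse serum. The 3 libraries of dCas9-KRAB cells had no sgRNA against the enhancer, and the 3 libraries of dCas9-KRAB-En5 cells had 2 sgRNAs against Myog-En5. The labels do not say whether replicates came from separate cultures, so p-values measure the spread between these libraries, which may be technical.

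Complement is a cascade of plasma proteins that tags and lyses targets. C1q binds antibody or a damaged surface, the proteases C1r and C1s attached to it cut C4 and C2, and the resulting convertase cuts C3. The alternative pathway uses factor B and is held together by properdin. The fragments C3a and C5a signal through receptors on myeloid cells. C1q and the receptors are typical of macrophages, whereas C1r, C1s, C3 and C1 inhibitor are also made by liver and mesenchymal cells.

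The depth was between 31831093 and 73988425 counts per library. dCas9-KRAB-En5 replicate 3 stood apart, with 13991 genes listed against 17084 to 19395 in the others and 25.8% of its counts in ribosomal protein genes against 10.8% to 19.4%. *Myog* was between 1065 and 1224 TPM (counts per gene length, scaled to a sum of 1000000) in dCas9-KRAB and between 0 and 0.379 TPM in dCas9-KRAB-En5. In the tests below, edgeR scaled library sizes by TMM factors, 0.73 for dCas9-KRAB-En5 replicate 3 and 0.92 to 1.22 for the others. TPM carry no such factor, so the scales can place that library differently. Markers went against the label of myoblasts: muscle markers were nearly absent from dCas9-KRAB-En5, and macrophage markers were abundant in both groups. The 10 muscle markers, of which 9 were called lower, summed to between 16671 and 19290 TPM in dCas9-KRAB and to between 14.8 and 22.9 TPM in dCas9-KRAB-En5. Of 15 macrophage markers 14 were listed, and the summed level was between 6772 and 9066 TPM in dCas9-KRAB and between 14353 and 22472 TPM in dCas9-KRAB-En5. *Mrc1*, a mannose receptor of tissue macrophages, was at 0 in all libraries. *Lyz2*, the lysozyme of myeloid cells, made up the largest share, with 1896 to 4815 TPM against 6938 to 13210 TPM. Of 10 mesenchymal markers 9 were listed and 1 of 7 tested was called, lower, and they summed to between 82.7 and 249.5 TPM against 30.1 to 62.0 TPM. The parts of these cell type markers in the results on complement were not tested. In bulk libraries, fewer cells of a type and less RNA per cell cannot be told apart.

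Counts were compared with edgeR, and a call needed a Benjamini-Hochberg adjusted p no higher than 0.01 and a log2 fold change of 1 or more in size. Of 14378 genes tested, 4.67% were called lower and 1.52% higher in dCas9-KRAB-En5. Among the 9 complement genes, *C1qa* and *C1qc* had too few counts to be tested. None of the 7 tested was called by edgeR, and 3 of the 7 had an unadjusted p under 0.05, as did 32.9% of all genes. With the cutoff on the adjusted p at 0.05, *Serping1* was lower, and *C5ar1* and *Cfp* were higher, beside 9.6% of all genes lower and 7.43% higher. DESeq2 called *Serping1* lower and *C5ar1* higher, where it called 8.66% of genes lower and 5.88% higher, and limma on log2(TPM + 1) called none of the 7. The median log2 fold change of the 7 tested was 0.12, and that of all tested genes was 0.08.

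The order of the levels differed between the groups. By mean TPM, which allows for gene length, dCas9-KRAB ran from *Cfp* over *C3*, *Serping1*, *C5ar1*, *C3ar1*, *Cfb* and *C1qb* to *C1qa* and *C1qc*. Neighbours in this order overlapped in range except *C5ar1* over *C3ar1* and *C3ar1* over *Cfb*. In dCas9-KRAB-En5 the order was *Cfp*, *C5ar1*, *C3*, *C3ar1*, *Serping1*, *Cfb*, *C1qb*, *C1qc* and *C1qa*. There the ranges were apart for *Cfp* over *C5ar1*, *C3* over *C3ar1* and *Serping1* over *Cfb*. *Serping1* thus moved from rank 3 in dCas9-KRAB to rank 5 in dCas9-KRAB-En5.

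**Figure D1:**
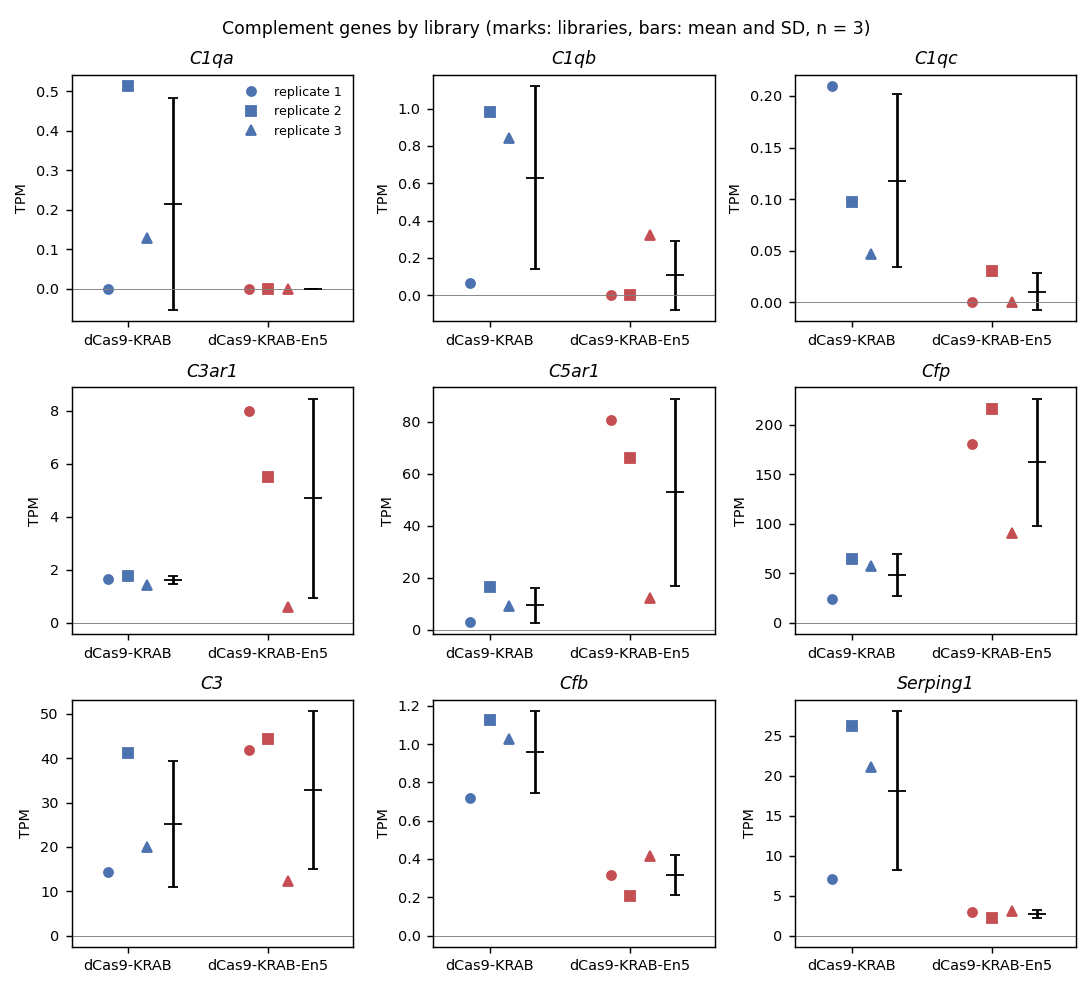
TPM of the 9 complement genes in each library, with 1 panel per gene and its own axis from 0. Marks are libraries and bars are mean and SD (n = 3). *Serping1* and *Cfb* lay lower in all 3 dCas9-KRAB-En5 libraries, and *Cfp* lay higher. In TPM, *C5ar1* and *C3ar1* were high in replicates 1 and 2 only.

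C1q is the recognition part of the classical pathway, built of A, B and C chains encoded by 3 neighbouring genes on chromosome 4. In GRCm38, the build of the files, *C1qb* lies at chr4:136880129-136886187, *C1qc* at chr4:136889804-136893065 and *C1qa* at chr4:136895917-136898803, all on the minus strand. The sequences before 2 of the RefSeq starts are shown because the chains form 1 protein. They are the 250 bases before the start (GRCm38.p6), 5′ to 3′ on the minus strand, at chr4:136886201-136886450 for *C1qb* and chr4:136892915-136893164 for *C1qc*. Capitals mark words from a list of 5 that was searched on both strands. A word on the opposite strand appears as its reverse complement.

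C1qb: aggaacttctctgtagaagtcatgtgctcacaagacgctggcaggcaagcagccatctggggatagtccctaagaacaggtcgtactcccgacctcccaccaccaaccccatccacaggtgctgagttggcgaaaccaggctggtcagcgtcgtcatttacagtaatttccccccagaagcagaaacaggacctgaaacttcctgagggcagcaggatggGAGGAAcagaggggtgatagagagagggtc

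C1qc: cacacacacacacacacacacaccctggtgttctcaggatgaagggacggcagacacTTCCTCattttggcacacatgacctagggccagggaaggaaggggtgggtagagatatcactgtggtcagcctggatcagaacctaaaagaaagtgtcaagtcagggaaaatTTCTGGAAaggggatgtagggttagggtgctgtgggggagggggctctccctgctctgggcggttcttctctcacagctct

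The words were GAGGAA, the core bound by PU.1 and other ETS factors, GAAANNGAA, a core of interferon-responsive elements, TTCNNNGAA, the core bound by STAT factors, TTNCNNAA, a loose C/EBP core, and CAGCTG, an E-box. Both windows held GAGGAA, 30 bases before the start of *C1qb* and 193 bases before that of *C1qc*, and *C1qc* also held TTNCNNAA. The RefSeq start of *C1qc* lies inside the GENCODE span given above, so that 151 of the 250 bases, with TTNCNNAA, are within the annotated gene. Of all 32851 windows of this length, 23.3% held GAGGAA and 36.8% held TTNCNNAA. A match describes the letters and is not evidence of binding.

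C1q was low in all libraries, at most 41 counts per chain. *C1qa* had 0, 0.514 and 0.129 TPM in dCas9-KRAB replicates 1 to 3 and 0 TPM in all 3 dCas9-KRAB-En5 libraries. *C1qb* had 0.0677, 0.982 and 0.841 TPM against 0, 0 and 0.321 TPM. *C1qc* had 0.210, 0.0969 and 0.0463 TPM against 0, 0.0305 and 0 TPM. The groups overlapped for *C1qa* and *C1qb* and did not for *C1qc*. In summed counts, *C1qa* had 26 in dCas9-KRAB against 0 in dCas9-KRAB-En5, at least 5.14-fold lower at equal depth against a floor of 3 counts over the group. *C1qb* had 83 against 8 counts, a ratio of 6.15 at equal depth (95% interval 2.98 to 14.7). *C1qc* had 22 against 1, a ratio of 13.0 (2.11 to 538). The intervals are exact and cover counting error only, not the spread between libraries. For *C1qb*, the only chain tested, the log2 fold change was −2.03 (SE 1.57, edgeR adjusted p = 0.394). All 8 of its counts in dCas9-KRAB-En5 were in replicate 3. Without that library the edgeR adjusted p was 0.0175, against a group at 0.

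The summed TPM of the 3 chains overlapped, with 0.321 in dCas9-KRAB-En5 replicate 3 above 0.278 in dCas9-KRAB replicate 1. The sum was also set against macrophage markers, whose *Lyz2*-led level was higher in dCas9-KRAB-En5. Per 1000000 TPM of those markers, the 3 chains summed to 30.6, 235 and 134 TPM in dCas9-KRAB and to 0, 2.13 and 19.2 TPM in dCas9-KRAB-En5. The ratio of the group means, dCas9-KRAB-En5 over dCas9-KRAB, was 0.0534, and it lay between 0.00799 (without dCas9-KRAB-En5 replicate 3) and 0.0866 (without dCas9-KRAB replicate 2) when single libraries were left out. The groups did not overlap on this scale, and an exact permutation test of 3 against 3 libraries cannot go below p = 0.1. With *Csf1r*, *Adgre1* and *Cd68* alone as the markers, the ratio of the group means was 0.107. The genes most like the mean log2(TPM + 1) of the chains over the 6 libraries, among 5200 genes with a mean of at least 10 TPM, were *Fbln2*, which encodes fibulin 2 of the extracellular matrix (Pearson r 0.989), *Oaf* (0.988), *Ppp1r16a* (0.984), *Akt1s1* (0.981) and *Fbxo6* (0.980). These are descriptions over 6 libraries of 2 groups that also differ in depth.

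*Serping1* encodes C1 inhibitor, a serpin that removes C1r and C1s from C1 and blocks the MASP proteases. It lies at chr2:84765387-84775444 on the minus strand. Its level was 7.10, 26.2 and 21.1 TPM in dCas9-KRAB replicates 1 to 3 and 2.96, 2.16 and 3.03 TPM in dCas9-KRAB-En5, with means of 18.1 ± 9.90 and 2.72 ± 0.485 TPM (SD, n = 3). The lowest dCas9-KRAB library, replicate 1, was still above all 3 dCas9-KRAB-En5 libraries. Its log2 fold change was −2.67 (SE 0.63, edgeR adjusted p = 0.0148), 6.37-fold lower and short of the 0.01 cutoff. The labels do not say whether same-numbered libraries were handled together. In a fit that assumed so, with the replicate number as a block, *Serping1* was called (edgeR adjusted p = 0.00306). That fit called 6.79% of all genes lower and 3.94% higher. Without dCas9-KRAB-En5 replicate 3 it was also called (−3.40, edgeR adjusted p = 0.00158), where 14.0% of genes were called lower and 11.7% higher.

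*C1ra*, *C1rb*, *C1rl* and *C1s1*, which encode C1 proteases and a relative, lay below all dCas9-KRAB libraries in all 3 dCas9-KRAB-En5 libraries, whereas *C1s2* overlapped. Of all tested genes, 19.7% were lower in TPM without overlap. None of these 5 complement genes was called by edgeR over all 6 libraries at the 0.01 cutoff with a filter on low counts and without the block. Without that filter, *C1ra* and *C1rl* were called lower (edgeR adjusted p = 0.005 and 0.00457), beside 1194 of 23231 genes lower. DESeq2 called *C1ra*, *C1rb* and *C1rl* lower (adjusted p = 0.00194, 0.0062 and 0.00133), beside 8.66% of all genes lower. So did edgeR without dCas9-KRAB-En5 replicate 3 (adjusted p = 0.00201, 0.00223 and 0.00236), beside 14.0% of all genes lower. In the other fits that left out 1 library none of these was called, with edgeR adjusted p up to 0.0887, 0.152 and 0.107. *C1ra*, a C1r gene, had 17.4, 32.0 and 18.8 TPM against 6.54, 8.90 and 5.13 TPM. Its log2 fold change was −1.84 (edgeR adjusted p = 0.0168) and it was called with the replicate block (edgeR adjusted p = 0.00875). *C1rl*, a C1r-like protease, had 1.43, 4.64 and 3.76 TPM against 0.455, 0.549 and 0.595 TPM. For *C1rl* the log2 fold change was −2.58 (edgeR adjusted p = 0.0257, 0.00824 with the replicate block). *C1ra* and *C1rb* are near-identical copies, as are *C1s1* and *C1s2*, and how reads were divided within a pair is uncertain. Summed over the copies, C1r was 30.4 ± 10.1 against 8.99 ± 1.94 TPM and C1s 16.8 ± 4.06 against 8.79 ± 2.00 TPM (SD, n = 3), and neither sum overlapped between groups. *C1s1* alone had a log2 fold change of −1.11 (edgeR adjusted p = 0.119). *C1s2* had 3.59, 4.47 and 2.33 TPM against 2.43, 1.71 and 2.43 TPM, with a log2 fold change of −0.60 (edgeR adjusted p = 0.514). The ratio of *Serping1* to the summed C1r and C1s TPM was 0.169, 0.429 and 0.549 in dCas9-KRAB and 0.149, 0.115 and 0.204 in dCas9-KRAB-En5, which overlapped.

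*Masp1*, which encodes proteases of the lectin pathway that C1 inhibitor also blocks, fell. It had 3.03, 3.64 and 2.32 TPM in dCas9-KRAB and 0.326, 0.240 and 0.0844 TPM in dCas9-KRAB-En5. No library of one group came near the other. Its fold change on the log2 scale was −4.06 (SE 0.53, edgeR adjusted p = 0.000546), and *Masp1* was called in all 16 settings tried. *Rtp4*, an interferon-inducible gene on the opposite strand inside the span of *Masp1*, shares no exon base with it and also fell (log2 fold change −3.27, edgeR adjusted p = 0.00205).

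Interferon-inducible reference genes were lower beside these levels. All 12 had a negative log2 fold change, with a median of −2.66, and 6 were called lower, beside 4.67% of all genes. For 3 of them, *Irf1*, *Stat2* and *Rsad2*, the groups overlapped and the gene was not called. Their summed level was between 5064 and 6832 TPM in dCas9-KRAB and between 688 and 985 TPM in dCas9-KRAB-En5, with replicate 3 at 945 TPM. Type I collagen *Col1a1*, the mesenchymal marker that was called, fell by 3.65 on the log2 scale (edgeR adjusted p = 0.0062). Of the 7 mesenchymal markers tested, 6 had a negative log2 fold change and 1, *Pdgfra*, a positive one (0.53, edgeR adjusted p = 0.767). The groups overlapped for *Col3a1*, *Dcn*, *Fn1*, *Pdgfra* and *Pdgfrb*. The parts of both marker lists in the lower *Serping1* and C1 protease levels were not tested.

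C3 is the protein on which all pathways converge. *C3* lies at chr17:57203970-57228136 on the minus strand. Its upstream window, chr17:57228137-57228386 on the minus strand, is shown with capitals as above. Of the 6 windows that RefSeq gave for the 9 genes, it held the most matches when each strand was counted. These were 4, against 3 for *C5ar1*.

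C3: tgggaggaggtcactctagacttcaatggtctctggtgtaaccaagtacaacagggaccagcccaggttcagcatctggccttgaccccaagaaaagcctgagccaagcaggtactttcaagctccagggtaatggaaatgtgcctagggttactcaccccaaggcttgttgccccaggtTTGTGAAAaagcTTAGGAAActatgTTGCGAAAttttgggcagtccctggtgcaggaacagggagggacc

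TTNCNNAA or its reverse complement occurred 70, 58 and 45 bases before the start, the last on both strands over the same bases, and no other matches overlapped. *C3* had 14.3, 41.2 and 19.9 TPM in dCas9-KRAB and 41.8, 44.2 and 12.4 TPM in dCas9-KRAB-En5. The highest and the lowest library were both of dCas9-KRAB-En5, replicates 2 and 3. The log2 fold change was 0.12 (SE 0.47, edgeR adjusted p = 0.889), and it lay between −0.20 and 0.52 when single libraries were left out, with both signs. Most like *C3* over the 6 libraries were *Gm4786* (Pearson r 0.988), *Dnajb12* (0.983), *Gm47283* (0.982), *Ybx3* (0.980) and *Tipin* (0.978). The low TPM of replicate 3 was common to them, as in *Ybx3*, which encodes a nucleic acid binding protein and had 131, 184 and 55.7 TPM in dCas9-KRAB-En5.

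The alternative pathway genes differed from each other. *Cfb* encodes factor B, the protease of the alternative convertase, and lies at chr17:34856374-34862518 on the minus strand. It had 0.717, 1.13 and 1.03 TPM in dCas9-KRAB and 0.317, 0.209 and 0.418 TPM in dCas9-KRAB-En5. The groups did not overlap, yet the log2 fold change of −1.49 (SE 0.81) did not pass the test (edgeR adjusted p = 0.227). Without dCas9-KRAB-En5 replicate 3 it was −2.44 (edgeR adjusted p = 0.0164). Exons of *Gm20547*, on the same strand, cover 79.5% of the exon length of *Cfb*. *Gm20547* had 0 counts in all libraries, and reads that fit both genes may be missing from *Cfb*.

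*Cfp* encodes properdin, which stabilises that convertase and is made by myeloid cells, and lies at chrX:20925454-20931555 on the minus strand. It was the most abundant of the 9 genes by mean TPM in both groups. The 250 bases before the RefSeq starts of *Cfp* (chrX:20931556-20931805) and *C5ar1* (chr7:16259339-16259588), both on the minus strand, are shown because these 2 genes were higher at the 0.05 cutoff.

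Cfp: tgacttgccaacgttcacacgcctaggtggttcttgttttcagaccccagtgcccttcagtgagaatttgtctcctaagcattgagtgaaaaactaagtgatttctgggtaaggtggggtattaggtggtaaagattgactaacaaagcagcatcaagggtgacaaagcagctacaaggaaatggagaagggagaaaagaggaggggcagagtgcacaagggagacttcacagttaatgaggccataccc

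C5ar1: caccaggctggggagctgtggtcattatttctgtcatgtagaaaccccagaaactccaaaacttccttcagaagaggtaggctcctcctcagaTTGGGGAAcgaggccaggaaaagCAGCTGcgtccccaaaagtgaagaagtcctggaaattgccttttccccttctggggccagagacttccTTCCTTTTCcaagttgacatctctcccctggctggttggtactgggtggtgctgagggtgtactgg

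No word of the list occurred in the *Cfp* window. For *C5ar1*, 202 of the 250 bases, with all its words, lie within the GENCODE span of the gene. Its window held TTNCNNAA, CAGCTG (in 13.0% of all windows) and GAAANNGAA (7.13%), and TTCNNNGAA (7.02%) occurred in none of the 6. *Cfp* had 24.3, 64.3 and 56.9 TPM in dCas9-KRAB and 180, 215 and 91.0 TPM in dCas9-KRAB-En5, with means of 48.5 ± 21.3 and 162 ± 64.1 TPM (SD, n = 3). All dCas9-KRAB-En5 libraries were above all dCas9-KRAB libraries. In edgeR *Cfp* had a log2 fold change of 1.54 (SE 0.47, adjusted p = 0.0434), 2.90-fold higher. Groups of TPM that do not overlap were found for 7.76% of all tested genes in this direction and for 19.7% in the direction of *Serping1* and *Cfb*. Per 1000 TPM of the macrophage markers *Csf1r*, *Adgre1* and *Cd68*, *Cfp* was 56.3, 69.3 and 78.1 TPM in dCas9-KRAB and 131, 116 and 109 TPM in dCas9-KRAB-En5, again without overlap.

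By TPM, the anaphylatoxin receptors were high in 2 of the 3 dCas9-KRAB-En5 libraries. *C5ar1*, at chr7:16246743-16259540 on the minus strand, encodes the C5a receptor. It had 2.81, 16.2 and 9.14 TPM in dCas9-KRAB and 80.6, 66.0 and 12.1 TPM in dCas9-KRAB-En5. Replicates 1 and 2 of dCas9-KRAB-En5 were far above dCas9-KRAB, whereas replicate 3 lay within its range. The log2 fold change was 2.15 (SE 0.62, edgeR adjusted p = 0.0349), 4.45-fold higher, and DESeq2 called the gene (adjusted p = 0.00727). Without replicate 3 it was 2.40 (edgeR adjusted p = 0.00655) and was called.

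*C3ar1*, at chr6:122847138-122856161 on the minus strand, encodes the C3a receptor. It had 1.66, 1.75 and 1.44 TPM in dCas9-KRAB and 7.99, 5.51 and 0.599 TPM in dCas9-KRAB-En5, so that replicate 3 was below all dCas9-KRAB libraries. The log2 fold change was 1.10 (SE 0.63, edgeR adjusted p = 0.247), and 1.46 without replicate 3 (edgeR adjusted p = 0.0168). Relative to *Csf1r*, *Adgre1* and *Cd68*, *C3ar1* was 3.85, 1.89 and 1.98 TPM per 1000 TPM in dCas9-KRAB and 5.79, 2.96 and 0.716 in dCas9-KRAB-En5. *C5ar1* relative to these markers was 6.52, 17.5 and 12.5 in dCas9-KRAB against 58.4, 35.5 and 14.4 in dCas9-KRAB-En5. There replicate 3 was within the dCas9-KRAB range, as in TPM.

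In TPM, replicate 3 was also low beside replicates 1 and 2 for other receptors. *Cd93*, a surface glycoprotein once described as a C1q receptor, had 0.204, 0.216 and 0.147 TPM in dCas9-KRAB and 13.1, 13.6 and 0.137 TPM in dCas9-KRAB-En5. It rose by the test (log2 fold change 5.04, SE 1.04, edgeR adjusted p = 0.00815) although the groups overlapped. The call of *Cd93* was lost without dCas9-KRAB replicate 1, 2 or 3, with edgeR adjusted p of 0.0757, 0.0428 and 0.0285. *Itgam* encodes the alpha chain of complement receptor 3, and had 4.35, 4.64 and 2.56 TPM against 42.0, 63.3 and 3.57 TPM. Its log2 fold change was 2.75 (edgeR adjusted p = 0.0151) and it was called with the replicate block (edgeR adjusted p = 0.00499). Exons of *Gm49368* cover 68.7% of the exon length of *Itgam*, so its level is uncertain, and *Itgam* is also one of the macrophage markers. *Itgb2*, the beta chain, had 25.3, 61.8 and 44.7 TPM against 211, 362 and 62.6 TPM, with replicate 3 just above the highest dCas9-KRAB library (log2 fold change 1.91, edgeR adjusted p = 0.0259). *C1qbp*, a mitochondrial protein that binds C1q in vitro, was between 93.7 and 110.1 TPM against 86.2 to 161.7 TPM, with a log2 fold change of 0.07 (SE 0.44, edgeR adjusted p = 0.928).

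Macrophage markers differed in how replicate 3 stood. *Adgre1*, which encodes F4/80 and was the macrophage marker called, had 17.7, 7.62 and 9.09 TPM in dCas9-KRAB and 135, 122 and 29.6 TPM in dCas9-KRAB-En5. *Ptprc*, the leukocyte antigen CD45, had 1.61, 1.6 and 0.754 TPM against 7.91, 6.16 and 1.06 TPM. *Lyz2* was high in replicate 3, with 11005 TPM. Of the 14 markers tested, 11 had a positive and 3 a negative log2 fold change. *Aif1*, an actin-binding protein of macrophages, had 2.79, 2.58 and 2.64 TPM in dCas9-KRAB against 0.462, 0.693 and 1.17 TPM, without overlap (log2 fold change −1.63, edgeR adjusted p = 0.175). *Spi1*, which encodes PU.1, and *Fcer1g*, an Fc receptor chain, overlapped, with log2 fold changes of −0.32 and −0.16 (edgeR adjusted p = 0.689 and 0.855). The part of that library's lower gene number in the receptor levels was not tested.

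**Figure D2:**
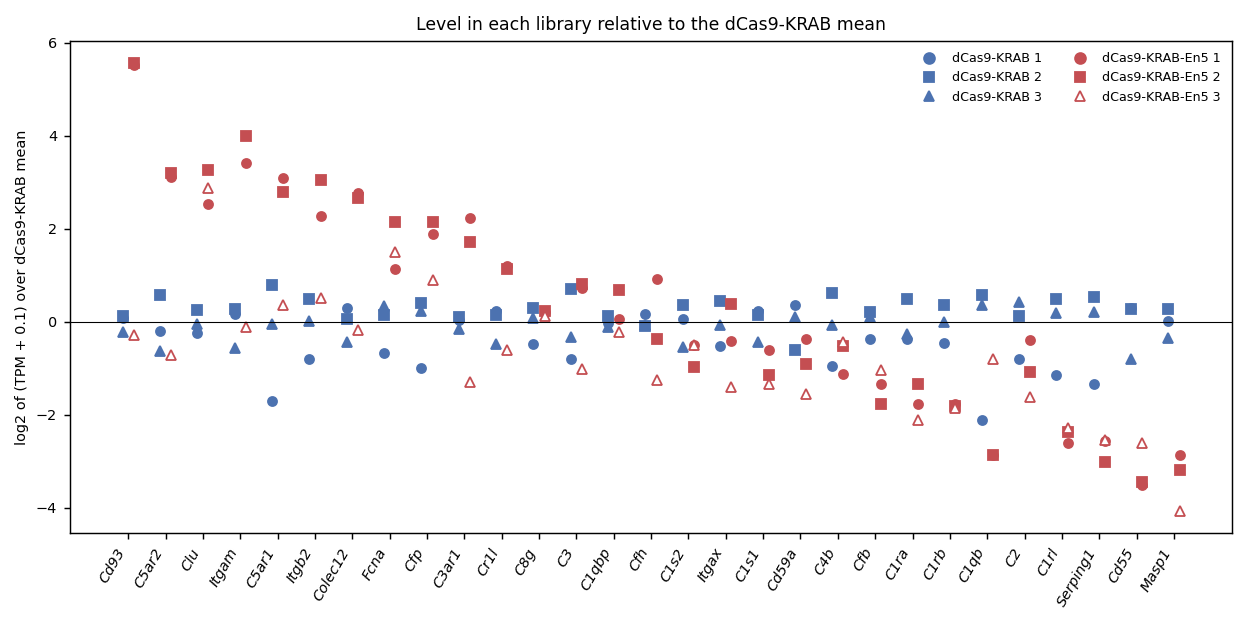
Level of the 29 tested complement genes in each library, as log2 of (TPM + 0.1) over the dCas9-KRAB mean plus 0.1, ordered by log2 fold change. Open triangles, dCas9-KRAB-En5 replicate 3, lie near or below 0 for *Cd93*, *C5ar2*, *Itgam*, *Colec12* and *C3ar1* and with replicates 1 and 2 for *Clu*, *Fcna*, *C1rl*, *Serping1* and *Masp1*.

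The 29 complement genes tested were the 7 above and 22 of a list of 50 others. By TPM, replicates 1 and 2 of dCas9-KRAB-En5 both lay above all dCas9-KRAB libraries for 12 genes. Replicate 3 was also above for 4 of them, *Clu*, *Itgb2*, *Fcna* and *Cfp*. It was within the dCas9-KRAB range for 3 (*Itgam*, *C5ar1* and *Colec12*) and below it for 5 (*Cd93*, *C5ar2*, *C3ar1*, *Cr1l* and *C3*). In TMM-scaled counts, replicate 3 lay above the dCas9-KRAB range for *Itgam*, *C5ar1*, *Colec12* and *Cd93*. On that scale it was within the range for *Cr1l* and *C3* and below it for *C5ar2* and *C3ar1*. By TPM, replicates 1 and 2 lay below all dCas9-KRAB libraries for 9 genes, and replicate 3 did so for 8 of these. They were *C1s1*, *Cfb*, *C1ra*, *C1rb*, *C1rl*, *Serping1*, *Cd55* and *Masp1*, 27.6% of the 29, and the exception was *C1qb*. Over all tested genes, the groups did not overlap in TPM for 19.7% lower and 7.76% higher in dCas9-KRAB-En5. This is a description of the libraries, with no test.

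Of the list of 50 other complement genes, 37 were listed in at least 1 library and 22 were tested, 12 with a negative and 10 with a positive fold change and a median log2 fold change of −0.47. *Masp1* was called lower, and *Clu* and *Cd93* higher, beside 4.67% of all genes lower and 1.52% higher. With the replicate block 7 were called (6.79% of all genes lower and 3.94% higher), the others being *C1ra*, *C1rl*, *Cd55* and *Itgam*. With the cutoff on the adjusted p at 0.05 there were 10 calls, 5 in each direction (9.6% of all genes lower and 7.43% higher).

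*Clu* encodes clusterin, an inhibitor of the terminal complex. It had 0.247, 0.389 and 0.292 TPM in dCas9-KRAB and 2.27, 3.83 and 2.89 TPM in dCas9-KRAB-En5, and all 3 libraries were higher (log2 fold change 3.24, SE 0.63, edgeR adjusted p = 0.00638). The call of *Clu* was lost without dCas9-KRAB replicate 1, 2 or 3 or dCas9-KRAB-En5 replicate 2, with edgeR adjusted p of 0.0427, 0.0331, 0.0371 and 0.0144. *Cd55*, a membrane regulator that speeds the decay of convertases, had 1.71, 1.69 and 0.755 TPM against 0.0292, 0.0365 and 0.144 TPM. Its log2 fold change was −4.00 (edgeR adjusted p = 0.0179), and −4.63 with the replicate block (edgeR adjusted p = 0.00583). *Fcna*, a ficolin that starts the lectin pathway, had 1.90, 3.46 and 3.95 TPM against 6.90, 14.2 and 9.0 TPM without overlap, and its log2 fold change of 1.61 did not pass either cutoff (edgeR adjusted p = 0.0753).

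The lytic end of the cascade was barely detected. Of 7 terminal genes, only *C8g* was tested, with a log2 fold change of 0.18 (SE 0.64, edgeR adjusted p = 0.877). The genes *C6*, *C7*, *C8a*, *C8b* and *C9* had no counts in any library. *Cfd*, the protease that cuts factor B, had 1 count in all. *C4b*, which encodes a substrate of C1s and is a near-identical copy of *C4a*, was at most 0.235 TPM, and *C2* was at most 0.317 TPM, with *Gm20547* covering 42.8% of its exon length.

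**Figure D3:**
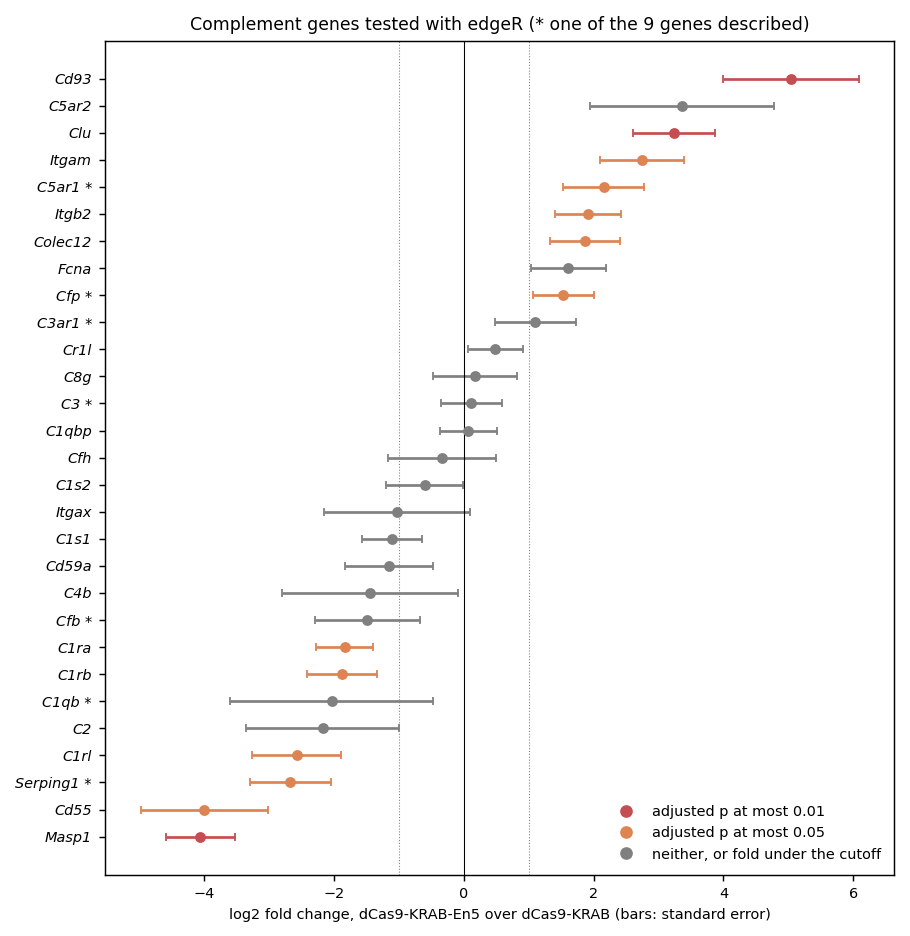
Log2 fold change of dCas9-KRAB-En5 over dCas9-KRAB with its standard error for the 29 tested complement genes, from edgeR. *Cd93* and *Clu* among the higher genes and *Masp1* at the bottom passed the 0.01 cutoff on the adjusted p, and *Serping1*, *C5ar1* and *Cfp* were among those that passed only 0.05.

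**Figure D4:**
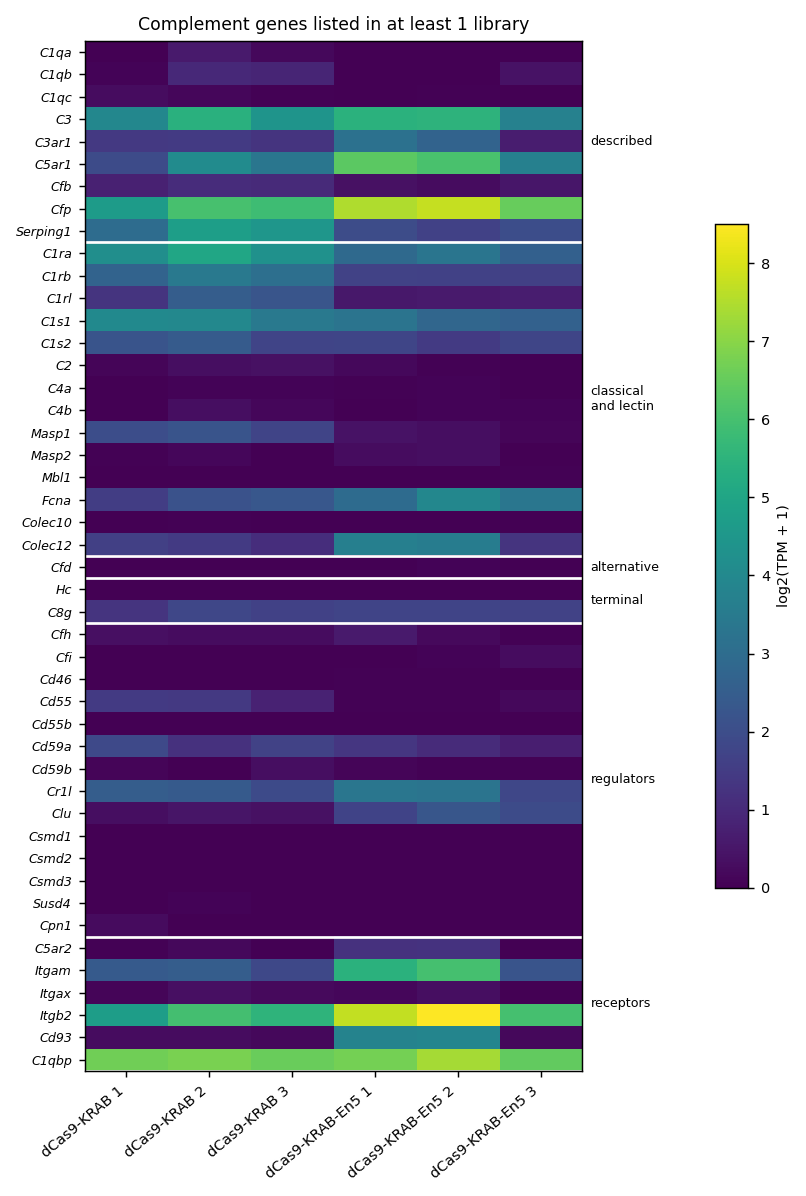
Heat map of log2(TPM + 1) for the 46 complement genes listed in at least 1 of the 6 libraries (columns), grouped by role. *Itgb2*, *Cfp* and *C1qbp* were the most abundant rows, and the C1q chains were near 0.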

How the data were processed

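Per the labels, polyA RNA of 3 dCas9-KRAB and 3 dCas9-KRAB-En5 samples of C2C12 cells was sequenced. The authors aligned the reads to GRCm38 with HISAT2 2.2.1, obtained gene-level read numbers from featureCounts and deposited them as raw counts. The authors also deposited TPM, which are counts per gene length scaled to 1000000. The annotation release and the strand setting are not given in the sources used here. Implied gene lengths lay within 1% of the GENCODE exon length for 98.62% of genes. Genes without a line were taken as 0, and 23155 of 23231 genes matched a symbol.

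Counts were tested in R 4.3.3 by edgeR 4.0.16 after TMM scaling and filterByExpr (minimum count 10, total 15), by the quasi-likelihood test with group alone in the model. All 14378 genes that passed entered the fit and the adjustment. Alternatives were DESeq2 1.42.0, limma 3.58.1 with a pseudocount of 1 or 0.1 TPM, other scaling factors and count filters, an adjusted p of 0.05, the replicate number as a block and each library left out. Deviations of same-numbered libraries from their group means correlated at 0.262, 0.214 and 0.290, and at −0.138 on average for other numbers. Deviations cancel within each group, so the average for other numbers follows largely from that for same numbers. The labels do not say that same-numbered libraries were handled together, and the block is an assumption. The code was tested on simulated data.

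The genes and lists were chosen with earlier results of these data known. Named were the 9 genes, other complement genes that were called or had a mean of at least 10 TPM in a group, overlapping genes, the 5 genes most correlated with C1q and with *C3*, and *Myog* and *Actb* as checks. Copies and receptors outside this rule were chosen after their values were seen. *Actb* was between 460 and 1217 TPM in dCas9-KRAB and between 315 and 764 TPM in dCas9-KRAB-En5. The lists of hepatocyte, neutrophil, T cell, B cell and endothelial markers each summed to at most 12.0 TPM in any library. That maximum was the neutrophil marker *S100a8* in dCas9-KRAB-En5 replicate 3 (log2 fold change 5.11, edgeR adjusted p = 0.0218). Upstream windows were found in the RefSeq table for 6 of the 9 genes, without *C1qa*, *Cfb* and *Serping1*.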

Additional observations from a re-analysis of the deposited data

How the results depend on the processing

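The number of genes called was 890, and 2390 with DESeq2, 586 with total counts only (516 lower and 70 higher, against 671 and 219), 2198 without a filter, 544 with at least 10 counts in every library, 1543 with the replicate block, 2449 with the adjusted p cutoff at 0.05 and 514 with limma on log2(TPM + 1) (482 lower and 32 higher). With limma on log2(TPM + 0.1) it was 709 (643 lower and 66 higher). Leaving out single libraries gave 222 to 3921. Of the complement genes tested, 0 were called, and 2 with DESeq2, 2 without a filter, 1 with the replicate block, 3 with the adjusted p cutoff at 0.05, and 0 to 2 without single libraries. Of the other complement genes 3 were called, and 9 with DESeq2, 1 with total counts only, 9 without a filter, 7 with the replicate block, 10 with the adjusted p cutoff at 0.05, 1 with limma on log2(TPM + 1), and 1 to 11 without single libraries. The replicate block changed the call of *Serping1* and of no other of the 9 genes.

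The log2 fold change of *C3* changed sign in 3 of 6 fits without single libraries, from −0.20 to 0.52, and was −0.20 without dCas9-KRAB replicate 1, −0.04 without dCas9-KRAB replicate 3 and −0.01 without dCas9-KRAB-En5 replicate 1. *Serping1* was negative in all 16 settings, from −3.40 to −2.20 with adjusted p from 7.63e-05 to 0.0625. *C5ar1* lay between 1.66 and 2.65 (adjusted p 0.0011 to 0.128) and *Cfp* between 1.18 and 1.77 (0.0175 to 0.159). The causes were not tested. Counts of 0 to 41 limit the C1q genes, and 3 libraries a group limit all tests.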
